A study of Homo sapiens with 8 samples.

Results

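The YAP pathway genes described here are CTGF, CYR61, AMOTL2, AMOTL1, LATS2, TEAD1, YAP1, WWTR1 and AXL, 9 symbols set against the 32087 loci of the deposited expression table. For each symbol, the locus with the highest mean over the 8 libraries was taken. A locus was found for 8 of the 9, and CYR61 was not analysed here. Of these 8, 7 reached the mean of 1 needed to enter the tests, in which 10519 genes were tested, and AXL did not. The set was chosen by measured values, the high levels of CTGF in the knockout and mutant degron lines against parental cells, so values of the 9 genes in comparisons between lines are given as a description, with no test.

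All libraries came from MEL202, a uveal melanoma cell line with mutant SF3B1, a gene for a core splicing factor. The labels give 4 lines. In mut-SF3B1 KO the mutant allele is knocked out, in DD-mut-SF3B1 (here the mutant degron line) mutant SF3B1 carries a destabilising domain, in DD-wt-SF3B1 (here the wildtype degron line) the wildtype protein carries it, and parental cells are unmodified as far as the labels say. Each line was sequenced minus Shld and plus Shld, with 1 library for each of the 8 groups. Shld is a small ligand that protects the destabilising domain, so that its withdrawal lets the tagged protein be degraded, and parental cells carry no such domain. Per the labels, the 3 derived lines were sampled at 2 days, and for parental cells the labels give no time. The column names of the table, in contrast, describe the knockout line as also having the domain at wildtype SF3B1 and as kept 4 days without Shld, and name parental cells minus Shld as 4 days, so the withdrawal in the knockout line cannot be read as free of a degron. Whether each derived line was 1 clone is not given in the sources used here, and neither is whether the libraries of a line came from separate cultures, so every p-value measures only the spread between these libraries.

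Levels are FPKM that the authors rescaled, so that the 75th percentile is 10 in every library, and differences are on the log2(value + 1) scale unless a ratio is named. The values of a library summed to between 762679 and 961994, and between 13430 and 14080 loci were listed at 0. SF3B1 itself was lower in the knockout line, at 138 and 158 minus and plus Shld, against 240 and 266 in parental cells. It was 252 and 248 in the mutant degron line and 201 and 188 in the wildtype degron line, and these levels sum both alleles and do not measure protein. Ribosomal protein genes took 11.8% and 12.1% of the summed values in the wildtype degron line, against 16.6% to 21.0% in the other libraries. The 12 melanocyte markers found summed to 6650 and 7403 in the knockout line and to 9366 and 7761 in the mutant degron line, below the 14539 and 15791 of the wildtype degron line and the 13191 and 12179 of parental cells. All 12 were at 1 or more in every library, and 8 epithelial markers summed to at most 1.57 and 9 endothelial markers to at most 1.74. The part of the marker changes in the results below was not tested. In bulk RNA, fewer cells of a type and less RNA per cell cannot be told apart.

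YAP (gene YAP1) and TAZ (gene WWTR1) are transcriptional coactivators that have no DNA-binding domain and reach their target genes through TEAD transcription factors. The Hippo kinases, ending in LATS1 and LATS2, phosphorylate both coactivators and hold them in the cytoplasm, and angiomotin family proteins also bind and retain them. CTGF, CYR61, AMOTL2 and LATS2 are classical targets, the last pair acting as negative feedback. In uveal melanoma, YAP is known to be activated downstream of mutant G proteins. The activity of YAP and TAZ is set largely by phosphorylation and location, which mRNA levels do not measure.

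TEAD factors recognise the letters GGAATG, and the promoter of CTGF is a textbook TEAD target, so it is shown with AMOTL2, whose level followed that of CTGF most closely. Promoter windows of 300 bases, from 250 before to 50 after the start, came from RefSeq (build GRCh38.p14), which matched 7 of the 8 genes found and holds CTGF under the name CCN2. The CTGF window is chr6:131951323-131951622 on the minus strand and the AMOTL2 window, at the second of its listed starts, is chr3:134374398-134374697 on the minus strand. Both are written 5′ to 3′ along the gene, and capitals mark GGAATG or, on the other strand, CATTCC.
CTGF: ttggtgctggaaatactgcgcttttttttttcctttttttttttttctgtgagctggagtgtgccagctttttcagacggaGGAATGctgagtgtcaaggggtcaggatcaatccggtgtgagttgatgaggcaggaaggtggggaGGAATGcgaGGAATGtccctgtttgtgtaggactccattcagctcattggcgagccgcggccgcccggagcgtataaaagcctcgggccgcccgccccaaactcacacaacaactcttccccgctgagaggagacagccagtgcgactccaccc
AMOTL2: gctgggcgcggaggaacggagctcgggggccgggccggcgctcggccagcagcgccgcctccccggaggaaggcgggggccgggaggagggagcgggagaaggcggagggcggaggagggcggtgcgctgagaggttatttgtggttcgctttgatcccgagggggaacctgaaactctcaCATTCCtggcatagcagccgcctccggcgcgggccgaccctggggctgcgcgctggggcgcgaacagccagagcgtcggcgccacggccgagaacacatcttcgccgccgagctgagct
The CTGF window held 3 copies, all on the gene's strand, which began 169, 104 and 95 bases before the start. The AMOTL2 window held 1 copy on the opposite strand, 69 bases before the start, and the window at its first start held 0. Windows of LATS2, YAP1 and AXL also held the letters, and those of AMOTL1 and WWTR1 did not. Of 35116 promoter windows of the same length, 14.03% held GGAATG on either strand and 0.1281% held 3 or more copies. A match of letters describes the sequence and does not show binding.

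Levels of the coactivators were highest in the knockout line. YAP1 was at 94.8 and 98.4 in the knockout line minus and plus Shld, 69.6 and 74.5 in the mutant degron line, 62.1 and 60.2 in the wildtype degron line, against 51.7 and 48.2 in parental cells. The 4 lines did not overlap, and the order of line means was knockout, mutant degron, wildtype degron and parental. The ratio of line means to the parental mean was 1.93 in the knockout line, 1.44 in the mutant degron line and 1.22 in the wildtype degron line. WWTR1, which encodes TAZ, was at 52.0 and 45.4 in the knockout line, 42.6 and 44.7 in the mutant degron line, 37.8 and 29.1 in the wildtype degron line, against 33.7 and 28.7 in parental cells. Its knockout and mutant degron libraries lay above all others, and the wildtype degron pair overlapped the parental pair. The mean of WWTR1 in the wildtype degron line was 1.07 times the parental mean, and that small difference turned negative without the wildtype degron library minus Shld (-0.10) or without the parental library plus Shld (-0.02). The antisense gene WWTR1-AS1 was at 0.284 to 1.06, and whether the authors' processing used strand is not given in the sources used here.

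TEAD1, the DNA-binding partner among these genes, did not follow the coactivators. It was at 29.2 and 25.9 in the knockout line, 28.8 and 35.3 in the mutant degron line, 37.5 and 32.9 in the wildtype degron line, against 26.0 and 24.5 in parental cells. The knockout pair overlapped the parental pair, while both degron lines lay above it. LATS2, a kinase that inhibits YAP and TAZ and is also one of their targets, had a similarly narrow range. It was at 20.2 and 15.1 in the knockout line, 17.9 and 20.1 in the mutant degron line, 20.5 and 16.7 in the wildtype degron line, against 15.5 and 14.2 in parental cells. The knockout pair again overlapped the parental pair, and the ratio of LATS2 line means to the parental mean was 1.19 in the knockout line, 1.28 in the mutant degron line and 1.25 in the wildtype degron line.

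CTGF, a secreted matricellular protein, spanned the widest range of the set. It was at 79.1 and 78.5 in the knockout line, 29.5 and 31.9 in the mutant degron line, 5.42 and 3.51 in the wildtype degron line, against 3.55 and 2.40 in parental cells. Both knockout libraries lay above both mutant degron libraries, and the wildtype degron and parental pairs overlapped. The ratio of line means to the parental mean was 26.5 in the knockout line, 10.3 in the mutant degron line and 1.5 in the wildtype degron line, and the knockout mean was 2.57 times the mutant degron mean.

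Among the other genes of the set, AMOTL2, a junctional angiomotin family protein, had the pattern closest to that of CTGF. It was at 41.4 and 39.6 in the knockout line, 24.3 and 24.3 in the mutant degron line, 10.0 and 6.53 in the wildtype degron line, against 6.99 and 5.17 in parental cells. The ratio to the parental mean was 6.67 in the knockout line, 4.0 in the mutant degron line and 1.36 in the wildtype degron line, where the libraries overlapped those of parental cells. AMOTL1, a second angiomotin family protein, was at 22.2 and 19.9 in the knockout line, 12.6 and 14.4 in the mutant degron line, 12.6 and 13.2 in the wildtype degron line, against 8.86 and 7.96 in parental cells. All derived libraries of AMOTL1 lay above the parental pair, with the knockout pair highest and the degron lines overlapping each other. AXL, a receptor tyrosine kinase whose gene is a YAP target in other cell types, was barely detected in any line. It was at 0.172 and 0.0715 in the knockout line, 0.0987 and 0.0788 in the mutant degron line, 0.179 and 0.206 in the wildtype degron line, against 0.0707 and 0.0385 in parental cells, too low for a fold to be read.

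**Figure D1:**
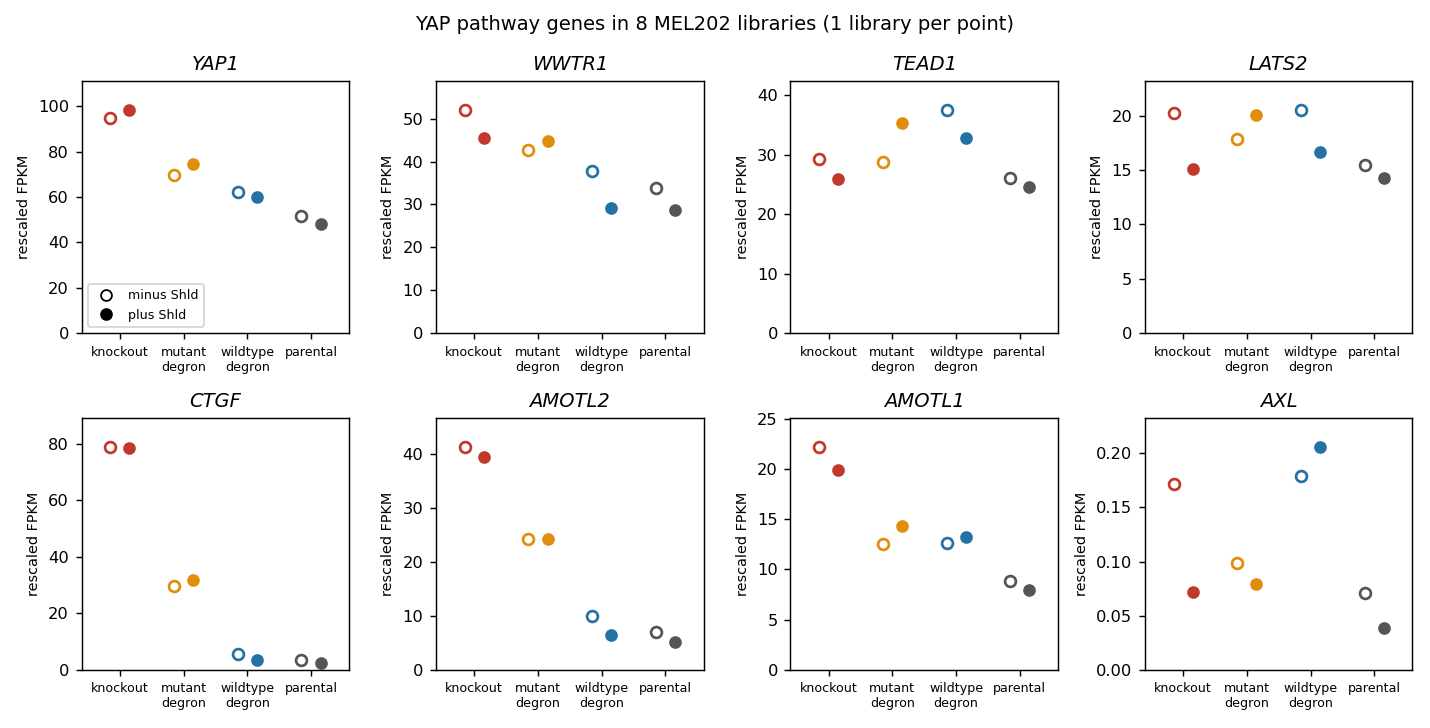
Rescaled FPKM (vertical axes, from 0) of the 8 YAP pathway genes found, by line, with 1 library per point, open minus Shld and filled plus Shld. CTGF and AMOTL2 are highest in the knockout line and next highest in the mutant degron line, whereas TEAD1 and LATS2 stay within a narrow range and AXL is below 0.21 in every library.

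Of the 7 genes that entered the tests, 3 were at least 2-fold higher in the knockout line than in parental cells on the log2(value + 1) scale, namely CTGF, AMOTL2 and AMOTL1, where 3.19% of all genes tested were. In the mutant degron line CTGF and AMOTL2 were, against 1.79% of all genes, and in the wildtype degron line 0 of 7 were, against 1.14%. Both libraries lay above both parental libraries for 5 of 7 in the knockout line, against 31.8% of all genes. They did so for 7 of 7 in the mutant degron line, against 30.7%, and for 4 of 7 in the wildtype degron line, against 37.8%. Line means in the order knockout, mutant degron, wildtype degron and parental were found for CTGF, AMOTL2, AMOTL1, YAP1 and WWTR1, 5 of 7, against 5.81% of all genes. The 3 comparisons share the parental libraries, and the set was chosen with these values known, so the shares are given for scale and nothing is read from them. The CTGF differences behind the choice of the set were 4.34 in the knockout line and 3.01 in the mutant degron line. Just inside the 2-fold limit, a difference of 1, stood AMOTL1 in the knockout line at 1.23, and just outside it YAP1 in that line at 0.94.

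Other genes known as YAP and TAZ targets were next compared between lines, leaving out those above. This list and those below were chosen with earlier results of these data known. Their counts, medians and p-values between lines are therefore not independent tests. Of the 17 listed, 15 were found and 9 reached a mean of 1. By limma with Benjamini-Hochberg adjustment over all genes tested, 6 of the 9 were higher and 0 lower in the knockout line than in parental cells, where 17.9% of all genes were higher and 20.8% lower. The 6 include TGFB2, which reached the mean of 1 only through the knockout libraries, so its call there is not read as a test. In the mutant degron line 4 were higher and 1 lower, where 11.5% and 14% of all genes were. In the wildtype degron line 4 were higher and 0 lower, where 21% and 21.4% of all genes were. The median difference of the 9 was 0.81 in the knockout line, 0.33 in the mutant degron line and 0.25 in the wildtype degron line, against medians over all genes of -0.03, -0.04 and 0.00. In the mutant degron line the count of 4 fell to 2 without that line's library minus Shld or the parental library minus Shld, and to 1 without that line's library plus Shld or the parental library plus Shld.

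CRIM1, a transmembrane protein with domains that bind growth factors, came nearest to CTGF among these targets. It was at 26.6 and 34.1 in the knockout line, 17.6 and 18.5 in the mutant degron line, 4.47 and 3.85 in the wildtype degron line, against 2.31 and 1.92 in parental cells. The lines did not overlap. CRIM1 differed from parental cells by 3.32 ± 0.14 (SE) in the knockout line (limma, adjusted p = 1.1e-06), by 2.62 ± 0.14 in the mutant degron line (adjusted p = 9.19e-06) and by 0.73 ± 0.14 in the wildtype degron line (adjusted p = 0.00377), each over 2 libraries a line. FOXF2, a forkhead transcription factor, was at 47.9 and 60.7 in the knockout line, 28.4 and 31.3 in the mutant degron line, 16.4 and 18.1 in the wildtype degron line, against 20.2 and 17.6 in parental cells. It was higher in the knockout line by 1.47 ± 0.13 (limma, adjusted p = 5.42e-05) and in the mutant degron line by 0.64 ± 0.13 (adjusted p = 0.00809). The mutant degron call was lost without the mutant degron library plus Shld (adjusted p = 0.0725) or the parental library plus Shld (adjusted p = 0.0645). In the wildtype degron line its libraries overlapped those of parental cells.

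TGFB2, which encodes a TGF-beta ligand, was at 2.17 and 2.24 in the knockout line, 0.991 and 0.977 in the mutant degron line, 1.10 and 1.01 in the wildtype degron line, against 0.529 and 0.513 in parental cells. It reached the mean of 1 only through the knockout libraries, so its call there, 1 of the 6 counted above, depended on the group in which it was high and no test is given. Its rise of 0.43 ± 0.13 in the wildtype degron line (limma, adjusted p = 0.0297) was lost on leaving out any library of that comparison, with adjusted p from 0.0754 to 0.123. PTPN14, a phosphatase that is both a target and a negative regulator of YAP, was at 9.25 and 7.34 in the knockout line, 6.12 and 6.98 in the mutant degron line, 9.03 and 7.87 in the wildtype degron line, against 4.50 and 4.02 in parental cells. It rose by 0.81 ± 0.14 in the knockout line (limma, adjusted p = 0.00182) and by 0.84 ± 0.14 in the wildtype degron line (adjusted p = 0.00221). In the mutant degron line PTPN14 was higher by 0.52 ± 0.14 (limma, adjusted p = 0.0232), a call lost on leaving out any library of that comparison, with adjusted p from 0.0503 to 0.155.

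MYOF, a ferlin family membrane protein, ran against CTGF. It was at 15.6 and 11.8 in the knockout line, 6.72 and 7.74 in the mutant degron line, 33.0 and 27.9 in the wildtype degron line, against 13.8 and 13.0 in parental cells. It fell in the mutant degron line, with a difference of -0.81 ± 0.14 (limma, adjusted p = 0.00449), and rose in the wildtype degron line by 1.12 ± 0.14 (adjusted p = 0.00132), while the knockout pair overlapped the parental pair. ANKRD1, a much used YAP target gene that stayed below a mean of 1, was picked out after its values were seen. The knockout line had 0.402 and 0.628 and the mutant degron line 0.434 and 0.198, whereas all wildtype degron and parental libraries were listed at 0. Among the other targets below that mean, IGFBP3 and CCDC80 lay above parental cells in both the knockout and mutant degron lines. NT5E did so in the knockout but not the mutant degron line, RBMS3 in the mutant degron but not the knockout line, and F3 in neither. GADD45A, a stress-response gene, and NUAK2, a kinase gene, did not pass in any line.

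**Figure D2:**
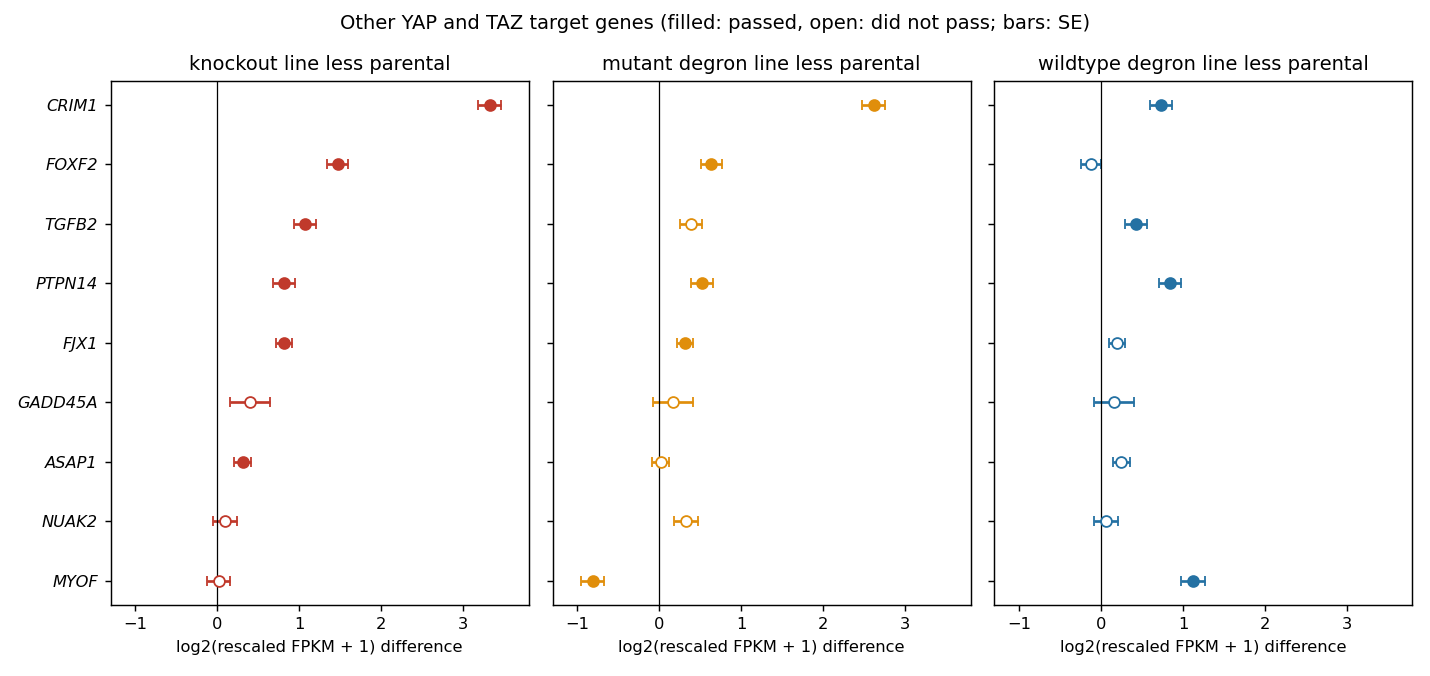
Differences from parental cells in log2(rescaled FPKM + 1) (horizontal axes) for the 9 other YAP and TAZ target genes tested, with 1 panel per derived line, error bars for the SE, filled points for genes that passed and open points for genes that did not. The filled point of TGFB2 in the knockout panel is not read as a test, since TGFB2 reached the mean of 1 only through the knockout libraries. CRIM1 lies at 3.32 in the knockout line, 2.62 in the mutant degron line and 0.73 in the wildtype degron line, and MYOF lies below 0 in the mutant degron line and above 0 in the wildtype degron line.

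Hippo pathway regulators other than LATS2 and the angiomotin-like genes were counted in the same way. PTPN14 is on this list and on that of the other YAP targets, and is counted as higher in both in every derived line. Of 26 listed, 24 were found and 23 tested, and by limma 10 were higher and 1 lower in the knockout line, 10 and 1 in the mutant degron line, and 10 and 2 in the wildtype degron line. The shares of all genes tested were 17.9% higher and 20.8% lower, 11.5% and 14%, and 21% and 21.4% in the same order. The median difference from parental cells was 0.27, 0.25 and 0.30 in the same order, against medians over all genes of -0.03, -0.04 and 0.00. The mutant degron count of 10 fell to 4 without its library plus Shld or the parental library plus Shld and to 5 without its library minus Shld, and the wildtype degron count of higher genes fell to 6 without the parental library plus Shld. The 2 lower genes of the wildtype degron line became 0 without that parental library or the wildtype degron library plus Shld.

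FAT1, a giant cadherin upstream of Hippo signalling, had the largest difference of these genes in every derived line. It was at 47.3 and 37.9 in the knockout line, 23.5 and 31.9 in the mutant degron line, 25.7 and 23.3 in the wildtype degron line, against 12.0 and 11.4 in parental cells. It rose by 1.77 ± 0.15 in the knockout line (limma, adjusted p = 5.26e-05), by 1.16 ± 0.15 in the mutant degron line (adjusted p = 0.00108) and by 1.01 ± 0.15 in the wildtype degron line (adjusted p = 0.00191). In the knockout line the LIM-domain proteins AJUBA, LIMD1 and WTIP, which bind and inhibit LATS kinases, rose by 0.92 ± 0.11, 0.89 ± 0.11 and 0.86 ± 0.11 (limma, adjusted p = 0.000368, 0.000347 and 0.000479). AJUBA, LIMD1 and WTIP also rose in the mutant degron line, by 0.60 ± 0.11, 0.62 ± 0.11 and 0.39 ± 0.11 (limma, adjusted p = 0.00602, 0.00408 and 0.0306). In the wildtype degron line LIMD1 rose by 0.36 ± 0.11 (limma, adjusted p = 0.0258), and AJUBA and WTIP did not pass. FRMD6, a scaffold protein of the pathway, rose by 0.66 ± 0.11 in the knockout line (limma, adjusted p = 0.00206) and by 0.65 ± 0.11 in the mutant degron line (adjusted p = 0.00405). AMOT, the founding angiomotin, was at 21.2 and 16.0 in the knockout line, 25.7 and 30.6 in the mutant degron line, 32.3 and 28.6 in the wildtype degron line, against 16.7 and 13.6 in parental cells. Unlike AMOTL2 it was highest in the degron lines, where it rose by 0.96 ± 0.15 in the wildtype degron line (limma, adjusted p = 0.00222). Its rise of 0.85 ± 0.15 in the mutant degron line (limma, adjusted p = 0.00531) was lost without that line's library plus Shld (adjusted p = 0.0535). FAT4, a second giant cadherin and 1 of the 10 counted as higher in the wildtype degron line, was at 2.02 and 1.99 there, against 0.608 and 0.492 in parental cells. It reached the mean of 1 only through those wildtype degron libraries, so its entry depended on the group in which it was high and no test is given.

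The other TEAD factors and their VGLL cofactors were also counted. Of 7 listed and found, 4 were tested, and 2 were higher in the knockout line, 1 in the mutant degron line and 0 in the wildtype degron line, with 0 lower in each. The shares of all genes tested that were higher were 17.9%, 11.5% and 21% in the same order. By limma, TEAD4 differed by 0.43 ± 0.12 (adjusted p = 0.022) and VGLL4, which competes with YAP for TEAD, by 0.40 ± 0.13 (adjusted p = 0.0353) in the knockout line, and TEAD2 by 0.37 ± 0.12 (adjusted p = 0.0448) in the mutant degron line. None of these calls held under every alternative. With no level filter, VGLL4 (limma, adjusted p = 0.0748) and TEAD2 (adjusted p = 0.0841) did not pass. TEAD4 did not pass without the knockout library plus Shld or either parental library (adjusted p from 0.0647 to 0.101), VGLL4 did not pass without the knockout library minus Shld or either parental library (0.0618 to 0.176), and TEAD2 did not pass on leaving out any library of its comparison (0.109 to 0.21). In the wildtype degron line the largest differences among the 4, neither of which passed, were 0.14 for VGLL4 and 0.13 for TEAD3. VGLL2 and VGLL3, below a mean of 1 and picked out after their values were seen, were at 2.44 to 3.19 and 1.48 to 2.38 in the knockout line, at 0.283 to 0.290 and 0.588 to 0.597 in the mutant degron line, and at most 0.058 in wildtype degron and parental libraries.

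Genes of serum response factor and of TGF-beta signalling overlap with YAP targets and were counted alongside. Of 10 tested targets of serum response factor and its MRTF cofactors, 4 were higher and 1 lower in the knockout line, 2 and 1 in the mutant degron line, and 5 and 2 in the wildtype degron line, by limma. The shares of all genes tested were 17.9% higher and 20.8% lower, 11.5% and 14%, and 21% and 21.4% in the same order. FHL2, a LIM-domain cofactor, was the lower one in the knockout line (-2.24 ± 0.10, adjusted p = 1.86e-06) and in the mutant degron line (-1.67 ± 0.10, adjusted p = 2.14e-05). The mutant degron count of 2 fell to 0 without that line's library plus Shld or the parental library plus Shld and to 1 without its library minus Shld. The wildtype degron count of 5 fell to 3 without its library minus Shld or the parental library plus Shld, and its count of 2 lower genes fell to 0 without the parental library plus Shld and to 1 without any other library of the comparison. Among the 4 higher in the knockout line, those with the largest differences encode actin-binding proteins, TAGLN being higher by 0.93 ± 0.14 (limma, adjusted p = 0.00119), VCL by 0.73 ± 0.11 (adjusted p = 0.00131) and FLNA by 0.36 ± 0.08 (adjusted p = 0.00705). ACTN1, also actin-binding, was the remaining one, higher by 0.33 ± 0.09 (limma, adjusted p = 0.0203). The actin-binding genes CNN2 and TPM2 did not pass there, with differences of 0.22 (limma, adjusted p = 0.113) and -0.20 (adjusted p = 0.378). TAGLN, VCL, FLNA and ACTN1 were also higher in the wildtype degron line. Their differences there were 0.56 ± 0.14, 0.92 ± 0.11, 0.94 ± 0.08 and 0.49 ± 0.09 (limma, adjusted p = 0.013, 0.00131, 0.000833 and 0.00374). VCL, FLNA and ACTN1 rose more there than in the knockout line. The TAGLN call there was lost without the wildtype degron library minus Shld or either parental library. The 2 higher in the mutant degron line were VCL (0.57) and FLNA (0.30).

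Of 13 tested TGF-beta response genes, 9 were higher and 1 lower in the knockout line, 9 and 2 in the mutant degron line, and 6 and 0 in the wildtype degron line, by limma. The shares of all genes tested were 17.9% higher and 20.8% lower, 11.5% and 14%, and 21% and 21.4% in the same order. The median difference of the 13 was 1.21, 0.87 and 0.43, again in that order. The 2 lower genes of the mutant degron line became 0 without its library minus Shld or the parental library minus Shld, and 1 without its library plus Shld. The inhibitors of DNA binding, which TGF-beta family ligands induce, were high in the lines with high CTGF. ID3 was at 262 and 173 in the knockout line, 289 and 271 in the mutant degron line, 48.2 and 34.8 in the wildtype degron line, against 30.9 and 29.5 in parental cells. It rose by 2.78 ± 0.20 in the knockout line (limma, adjusted p = 1.73e-05) and by 3.17 ± 0.20 in the mutant degron line (adjusted p = 2.17e-05). ID1 rose by 1.90 ± 0.09 in the knockout line (limma, adjusted p = 1.72e-06) and by 2.25 ± 0.09 in the mutant degron line (adjusted p = 2.21e-06). Unlike CTGF, neither gene was higher in the knockout line than in the mutant degron line in its line mean. TGFBI, a matrix protein, was at 43.7 and 80.7 in the knockout line, 0.513 and 0.840 in the mutant degron line, 10.6 and 13.9 in the wildtype degron line, against 4.17 and 2.59 in parental cells. It rose by 3.81 ± 0.28 in the knockout line (limma, adjusted p = 2.23e-05) and by 1.61 ± 0.28 in the wildtype degron line (adjusted p = 0.00293). In the mutant degron line TGFBI was lower, with a difference of -1.37 ± 0.28 (limma, adjusted p = 0.00913), a call lost without that line's library minus Shld (adjusted p = 0.0613) or the parental library minus Shld (adjusted p = 0.0579).

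Melanocyte markers, those of the line's own lineage, and fibroblast markers also differed between the lines. Of the 12 melanocyte markers tested, 0 were higher and 10 lower in the knockout line, 0 and 5 in the mutant degron line, and 5 and 1 in the wildtype degron line, by limma. The shares of all genes tested were 17.9% higher and 20.8% lower, 11.5% and 14%, and 21% and 21.4% in the same order. OCA2, a melanosome channel gene, fell in the knockout line (-2.07 ± 0.11, limma, adjusted p = 3.64e-06) and the mutant degron line (-1.48 ± 0.11, adjusted p = 5.31e-05) and rose in the wildtype degron line (1.38 ± 0.11, adjusted p = 0.000825). RAB27A, TYR, PMEL and MLANA also fell in the knockout and mutant degron lines. DCT fell most in the knockout line (-2.32 ± 0.22) but did not pass in the mutant degron line (-0.32). S100B fell in the knockout line (-1.54 ± 0.26) and did not pass in the mutant degron line (0.56). Unlike OCA2, MLANA was lower in the wildtype degron line (-0.61 ± 0.13), a call lost with quantile normalization. The wildtype degron count of 5 fell to 2 without its library plus Shld or the parental library plus Shld and to 3 without its library minus Shld. Of 10 fibroblast markers, 6 were found and LUM and POSTN tested. The 6 summed to 9.36 and 13.3 in the knockout line, 89.7 and 109 in the mutant degron line, 146 and 163 in the wildtype degron line, against 91.7 and 99.9 in parental cells. Most of each sum was POSTN, at 11.6 and 7.53 minus and plus Shld in the knockout line, against 69.9 and 69.0 in parental cells. In the mutant degron line, where CTGF was also high, POSTN was at 101 and 82.8. The sum thus follows mainly 1 gene and does not measure fibroblast content, and its relation to CTGF was not tested.

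Withdrawal of Shld within a line was not used to choose the genes, and could be tested. The question here was whether CTGF and the others respond to loss of the tagged SF3B1 protein within days. The spread in this fit came from the parental pair, so that a lone library is assumed to vary like that pair. By limma with Benjamini-Hochberg adjustment, 56 genes changed in the knockout line (0.532% of the 10519 tested), 6 in the mutant degron line (0.057%) and 4 in the wildtype degron line (0.038%). Of the 7 YAP pathway genes, 0 passed in any of the lines. At an unadjusted p under 0.05, 1 of 7 passed in the knockout line, 0 in the mutant degron line and 2 in the wildtype degron line, against 1310, 224 and 453 of all genes tested. In the parental cells, which carry no degron, 22 genes (0.209%) differed at least 2-fold between the libraries, and none of the 7 did.

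CTGF differed between minus and plus Shld by 0.01 ± 0.20 (SE) in the knockout line, by -0.11 ± 0.20 in the mutant degron line and by 0.51 ± 0.20 in the wildtype degron line (limma, adjusted p = 0.994, 1 and 1). In parental cells the same difference was 0.42. In the mutant degron line CTGF was thus near 30 in both states. AMOTL2 differed by 0.06 ± 0.19 in the knockout line, by less than 0.01 in size in the mutant degron line and by 0.55 ± 0.19 in the wildtype degron line (limma, adjusted p = 0.957, 1 and 0.87), against 0.37 in parental cells. These wildtype degron differences had unadjusted p of 0.0286 for CTGF and 0.0158 for AMOTL2 in the limma fit, and less the parental change they were 0.09 and 0.18. LATS2 had the lowest adjusted p of the set, in the knockout line, at 0.40 ± 0.16 (limma, adjusted p = 0.318).

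The medians of the 7 withdrawal differences were 0.15 in the knockout line, with 6 above 0, -0.11 in the mutant degron line, with 0 above 0, and 0.28 in the wildtype degron line, with 6 above 0. Medians over all genes tested were 0.00, 0.00 and 0.01 in the same order. In the parental pair, which carries no degron, each of the 7 genes was also above 0, from 0.08 for TEAD1 to 0.42 for CTGF. Values above 0 in a derived line are therefore not read as a response to loss of the tagged protein. The signs differed between the derived lines, and the difference between those lines was tested in the same limma fit. Between the knockout and mutant degron lines 14 genes (0.133%) differed in their withdrawal change, between the knockout and wildtype degron lines 6 (0.057%), and between the wildtype and mutant degron lines 5 (0.0475%), and none of the 7 was among them. At an unadjusted p under 0.05 there were 892, 349 and 480 genes, of which 1, 0 and 0 were of the set. The differences between the wildtype and the mutant degron line were 0.62 ± 0.29 for CTGF and 0.55 ± 0.27 for AMOTL2 (limma, adjusted p = 1 for both). Between the knockout and the mutant degron line that of LATS2 was 0.56 ± 0.23 (limma, adjusted p = 0.535).

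**Figure D3:**
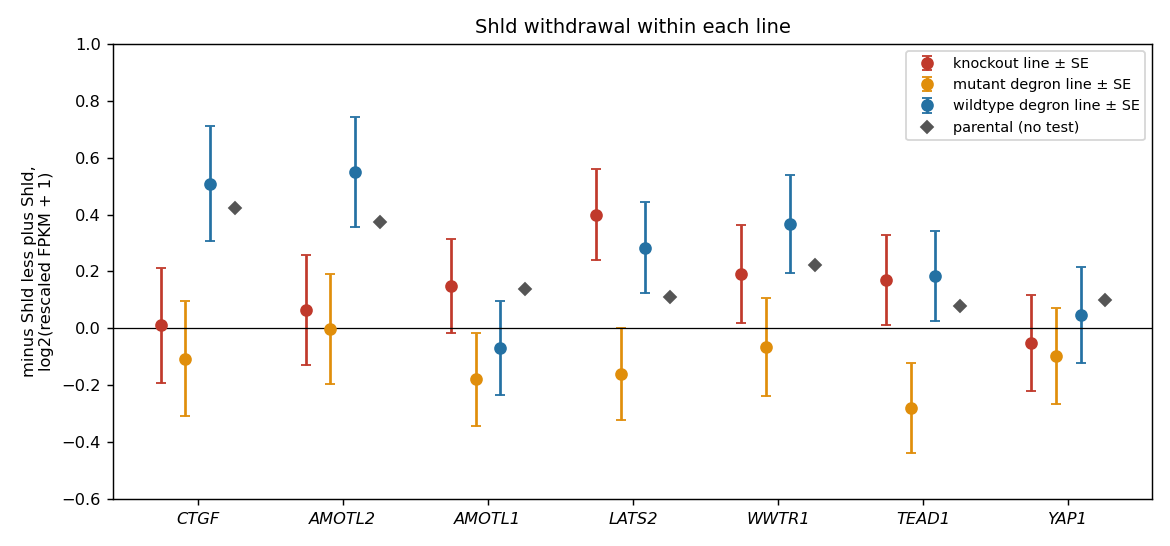
Change on Shld withdrawal (minus less plus Shld, log2(rescaled FPKM + 1), vertical axis) of the 7 YAP pathway genes tested, with the SE as error bars for the derived lines and diamonds for the parental pair, with no test. CTGF lies at 0.01 for the knockout line, -0.11 for the mutant degron line, 0.51 for the wildtype degron line and 0.42 for parental cells, and all 7 genes lie below 0 in the mutant degron line.

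None of the tested genes on the lists of Hippo regulators, TEAD cofactors, other YAP targets, serum response factor targets and TGF-beta response passed on Shld withdrawal in any line. The largest withdrawal difference among the other YAP targets was that of GADD45A, at 20.9 and 11.6 minus and plus Shld in the knockout line (0.80 ± 0.18, limma, adjusted p = 0.0809). When genes with a mean under 5 were left out, GADD45A passed in the knockout line (limma, adjusted p = 0.0163), and so did TGFBI of the TGF-beta list, at -0.87 (adjusted p = 0.0229). MYOF followed with 0.37 ± 0.16 in that line (limma, adjusted p = 0.36). CRIM1 was at 26.6 and 34.1 minus and plus Shld in the knockout line, the opposite direction to parental cells.

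Genes most like CTGF over the 8 libraries were ranked by Pearson correlation of log2(value + 1) among the 8598 genes whose mean reached 5. The correlation rests on 4 lines with a pair of libraries each and is a description. AMOTL2 ranked first (0.997), followed by FAM65B (0.995), TMEM47 (0.993), SEMA3C (0.993) and ETNK1 (0.992). FAM65B, a regulator of RhoA, was at 23.4 and 22.6 in the knockout line, 14.1 and 14.97 in the mutant degron line, 4.40 and 2.74 in the wildtype degron line, against 2.58 and 2.38 in parental cells. SEMA3C, a secreted semaphorin, was at 24.1 and 19.2 in the knockout line, 11.9 and 10.9 in the mutant degron line, 2.69 and 2.08 in the wildtype degron line, against 2.79 and 2.06 in parental cells. TMEM47, a junctional membrane protein, was at 43.4 and 41.8 in the knockout line, 20.1 and 22.1 in the mutant degron line, 7.36 and 5.90 in the wildtype degron line, against 7.39 and 6.03 in parental cells. ETNK1, an ethanolamine kinase, had a flatter step, with 30.5 to 35.7 across knockout and mutant degron libraries and 18.5 to 21.9 across wildtype degron and parental ones. Of the other genes of the set, YAP1 reached 0.956 (rank 117) and WWTR1 0.939 (rank 170). AMOTL1 reached 0.868 (rank 492), LATS2 0.367 (rank 2685) and TEAD1 -0.01 (rank 4385).

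**Figure D4:**
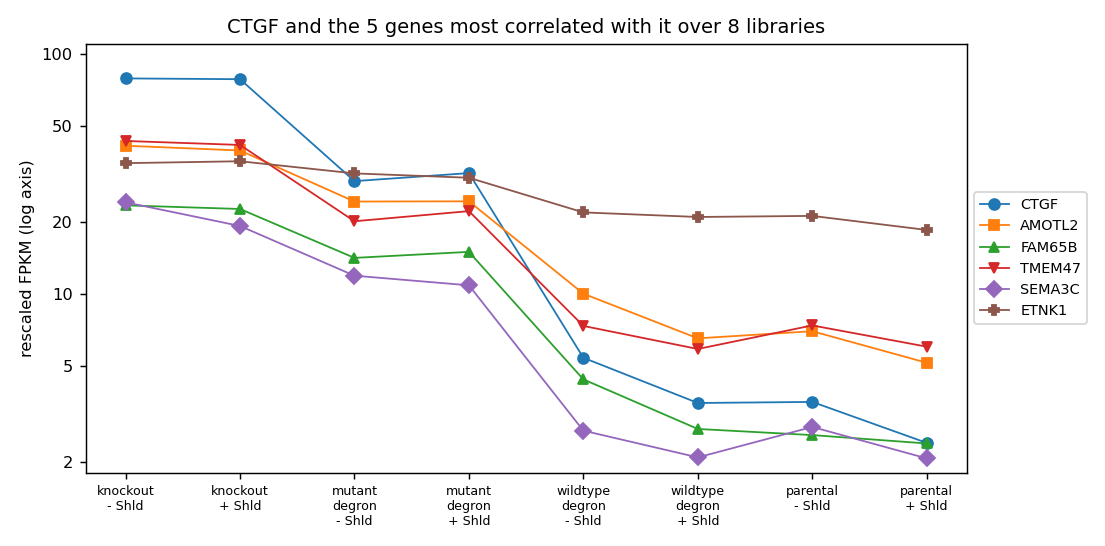
Rescaled FPKM on a log axis of CTGF and the 5 genes with the highest Pearson correlation with it, in each of the 8 libraries along the horizontal axis. All 6 genes are higher in the 4 knockout and mutant degron libraries than in the 4 wildtype degron and parental libraries, and CTGF spans the widest range, from 2.40 to 79.1.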

How the data were processed

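RNA from 8 MEL202 groups, 1 library each, was sequenced as paired reads from TruSeq libraries, per the labels' protocols. TopHat, Cufflinks and hg19 are named in the submitters' processing notes, while versions, annotation and strand use are not given in the sources used. The authors' deposited table holds FPKM rescaled so that the 75th percentile is 10 in each library; that FPKM was rescaled is inferred from Cufflinks and the values. Absolute depth is unknown. Compared with the parental library plus Shld, low values (0.001 to 0.3) gave 1.05 to 1.48 times as many fragments per unit.

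Genes tested were 10519 named loci, small RNAs left out, 1 locus per symbol (highest mean), with a mean of at least 1. Values were analysed as log2(value + 1) with limma 3.58.1 (R 4.3.3), empirical Bayes with a mean-variance trend, and Benjamini-Hochberg adjustment at 0.05. This scale understates the change of low genes. Lines were compared over both Shld states, 2 libraries a line, with 4 residual degrees of freedom, so the spread holds any Shld response. For withdrawal, only the parental pair gave the spread, with 1 residual degree of freedom. In a test on simulated data with 200 changed genes among 10519, the knockout line comparison recovered 100% of 2-fold changes with 13 false calls, and knockout withdrawal 99.5% with 6. The changed genes were drawn only from genes of higher level, and the noise was normal with a spread smoothed over level. The recovered shares therefore do not give the power for single genes of the set.

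The genes of the set and all lists were chosen with earlier results of these data known. Named list genes are, per comparison, up to 4 that passed with the largest difference, or 2 where none passed, with exceptions stated. Alternatives were a pseudocount of 0.1, a mean of at least 5, no level filter, quantile normalization, the Shld state as a block, another source of the spread, and leaving out each library. Promoters came from RefSeq (GRCh38.p14) by symbol. No coordinates of loci are given, since the files are on hg19.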

Additional observations from a re-analysis of the deposited data

How the results depend on the processing

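The 7 YAP pathway genes gave 98 withdrawal values and 91 differences between withdrawals under the alternatives, and 0 passed, with lowest adjusted p of 0.261 and 0.449 (limma). Differences between lines kept their sign for 20 of 21 gene and line pairs, the exception being WWTR1 in the wildtype degron line, which ranged from -0.10 to 0.27 on leaving out 1 library. Taken less the parental change, the knockout withdrawal values of CTGF, AMOTL2 and WWTR1 turned to -0.41, -0.31 and -0.031 and the wildtype degron value of YAP1 to -0.054, and quantile normalization turned AMOTL2 in the mutant degron line to 0.0048. The cause of none of these was tested.

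Counts of genes over the whole table moved more. On leaving out 1 library, the 4073 genes that differed in the knockout line became 2555 to 4111, the 2679 of the mutant degron line 981 to 2217, and the 4467 of the wildtype degron line 2171 to 4023, with fewer samples in each fit. With no level filter, which tests more genes, the 3 withdrawal counts and the 3 counts of differences all became 0. With a mean of at least 5, withdrawal called 235 genes in the knockout line and 8 in the wildtype degron line, and the differences 39 (knockout less mutant degron), 2 (knockout less wildtype degron) and 21 (wildtype less mutant degron). Quantile normalization gave 26 and 2 for those withdrawals and 5, 3 and 0 for those differences. A pseudocount of 0.1 gave 23 for knockout less mutant degron. With the spread from the parental and knockout pairs, the mutant degron count was 0, the wildtype degron count 2 and their difference 0.

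Of the list genes that passed and fall under the naming rule, FAT4 and TGFB2 included, 22 of 24 in the knockout line, 14 of 21 in the mutant degron line and 16 of 21 in the wildtype degron line passed under every alternative run. Pairing the libraries of the lines by Shld state, with that state as a block, gave 4159 genes in the knockout line, 2715 in the mutant degron line and 4507 in the wildtype degron line. Depth is unknown, so no interval is given for low values such as those of AXL and ANKRD1.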
